A study of Homo sapiens with 8 samples.

Results

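LK2 cells in which DNp63 was switched on with doxycycline were compared with the same cells left without the drug. LK2 is an established line of human lung squamous cell carcinoma. The comparison takes in 4 of the 8 RNA libraries of the series, 2 uninduced and 2 induced, grouped by their labels. The groups were chosen with earlier results of these data known. Both groups carried the vector pLIX_403-DNp63, from which DNp63 is made when the drug is present, and differed in doxycycline, given at 2 µg per ml for 6 days or not at all. The other 4 libraries, made from LK2 cells with a vector for GFP or for constitutive DNp63, entered only where a difference between the expression systems was tested. No library of cells given doxycycline without the DNp63 vector was analysed here, so an effect of the drug and an effect of DNp63 cannot be told apart. The labels do not say whether the replicates of a group were separate cultures, so p-values measure the spread between these samples, which may be technical.

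TP63 encodes p63, a relative of the tumour suppressor p53 that binds the same kind of DNA site. Its DNp63 form lacks the N-terminal activation domain, marks the basal cells of stratified and airway epithelium, and is a standard diagnostic marker of squamous carcinoma of the lung. It is known for switching on keratins, adhesion receptors and other epidermal genes, and for both activating and repressing transcription. SOX2, amplified together with TP63 in many of these tumours, also acts in neural progenitors, where it works with BRN2, the POU domain factor encoded by POU3F2. The title of the series names SOX2 and BRN2, and the comparison asks how genes of squamous and of neural identity stand when DNp63 is raised.

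Total counts were 5067659 and 10372248 for the uninduced pair and 8169745 and 5229957 for the induced pair, in the order of replicates 1 and 2 that is kept throughout. The table lists 26760 genes, of which 16958 had a count in these 4 libraries, and 11991 had enough to be tested. Levels are given as CPM, counts relative to library size after TMM scaling, and differences as the log2 of induced over uninduced with its standard error (n = 2 per group). A call means an adjusted p under 0.05 in edgeR's quasi-likelihood test over all tested genes. Induced replicate 1 stood apart in showing counts for 14137 genes, fewer than the 14886 to 15720 of the other 3 libraries, although 2 of those had smaller totals. Replicates of a group differed beyond sampling noise (chi-square per degree of freedom of 3.94 uninduced and 5.40 induced), and their log2 levels correlated across genes at 0.987 and 0.975. General epithelial markers were abundant, with a sum for EPCAM, CDH1, KRT8 and KRT18 of 2915 to 3218 CPM uninduced and 3868 to 4126 CPM induced. The squamous markers KRT14, with no count, KRT5, with 1 count uninduced and 6 induced, and KRT17, with 1 and 2, were near absent in both groups, so the squamous label of the line was not matched by these keratins. Of the 10 squamous markers listed, 1 was at 0 in all 4 libraries, and the sum of the list was 1662 to 1663 CPM uninduced and 1609 to 1819 CPM induced. TP63 itself is part of this sum and rose with KRT6A and TRIM29, while SOX2 and PERP fell. The sum therefore does not show how single markers moved. NAPSA, SFTPA1, SFTPB and SFTPC of alveolar cells and COL3A1, DCN, LUM and PDGFRB of fibroblasts had no count in any of the 4. The same held for PTPRC, CD3E and CD14 of immune cells and PECAM1 and CDH5 of endothelium. Other members of these sets were detected. The fibroblast marker COL1A1 had 84 and 147 counts uninduced and 67 and 74 induced, and PDGFRA had 1 and 11 against 1 and 2. The immune marker CD68 had 12 and 15 against 0 and 9, and the endothelial marker KDR 11 and 22 against 12 and 3. COL1A1, CD68 and KDR were tested and not called. In bulk RNA, fewer cells of a kind and less RNA per cell cannot be told apart.

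Induction changed 771 of 11991 genes (6.43%), of which 435 rose (3.63% of the tested genes) and 336 fell (2.80%). By more than 1 log2 unit 168 rose and 94 fell, and the median size was 0.82 among the rises and −0.74 among the falls. The median over all tested genes was 0.00233 on the log2 scale. Scaling holds this value close to 0, so it cannot show whether RNA shifted as a whole. The 2 groups did not overlap in 5665 tested genes (47.2%). Most genes named below were chosen by their calls, so a lack of overlap, where it is given, adds little to a call. The count of calls depended on which libraries set the spread. Leaving out uninduced replicate 1 or 2 gave 413 or 368 calls, and leaving out induced replicate 1 or 2 gave 541 or 1903. When the spread was estimated over all 8 libraries, 35 genes were called (0.284% of 12303), and all 35 were among the 771 with the same sign.

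**Figure D1:**
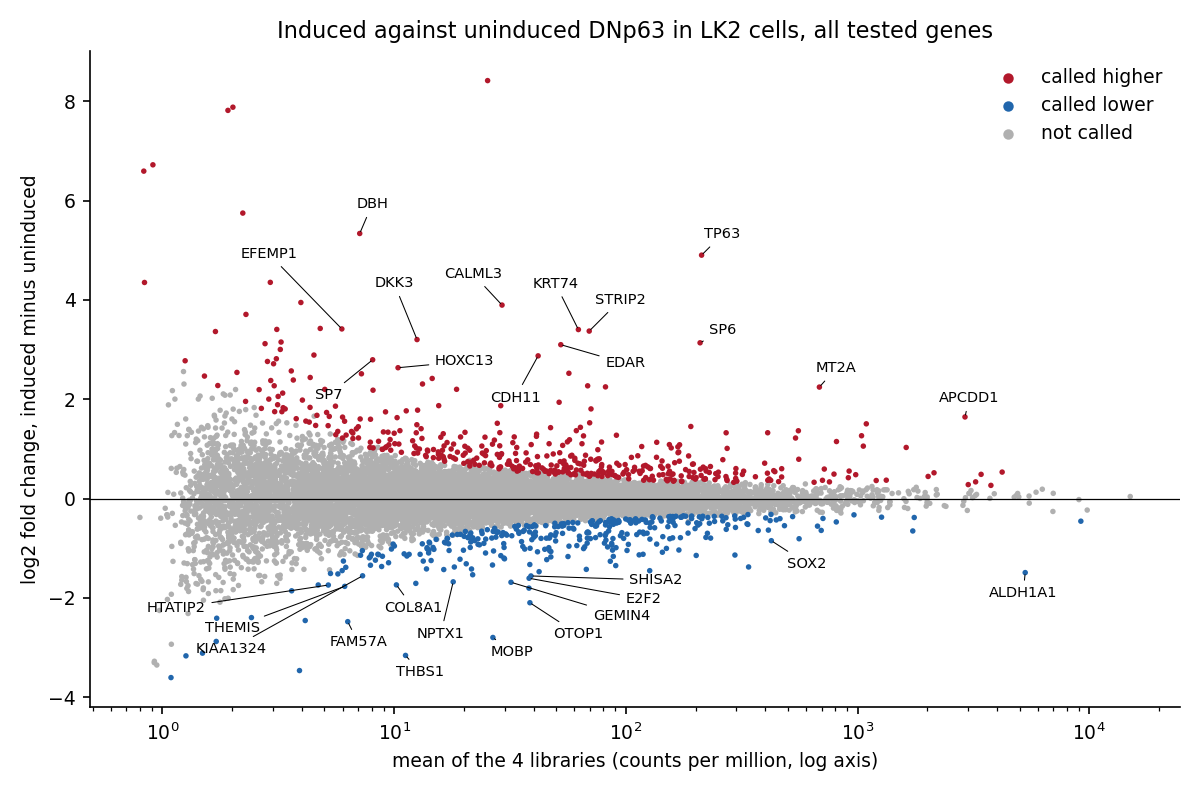
Each point is 1 of the 11991 tested genes, with its mean level over the 4 libraries on a log axis (CPM) and its log2 fold change, induced minus uninduced, on the vertical axis. Called rises (435) and falls (336) are coloured; labelled genes are the largest called changes at a mean of at least 5 CPM, antisense and locus names left out, together with ALDH1A1, APCDD1, MT2A and SOX2.

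TP63 itself was measured first, as a check of the labels. It stood at 12.5 and 14.5 CPM uninduced and 406 and 416 CPM induced. Both induced libraries were far above both uninduced ones, and the replicates of each group lay close together. The log2 fold change was 4.90 ± 0.13 (adjusted p = 7.05e-22), a rise of 29.9-fold, and it stayed between 4.82 and 5.04 with each library left out in turn. The counts include reads from the vector wherever these match the gene, so the level of the cell's own TP63 was not measured separately. TP73, which encodes the other p53 relative p73, was at 13.4 and 13.9 CPM uninduced and 8.52 and 9.49 CPM induced, and its log2 fold change of −0.61 ± 0.26 was not called (adjusted p = 0.191).

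The largest called rises at a mean level of 5 CPM or more included genes of hair follicle, tooth and stratified epithelium. KRT74, a keratin of the inner root sheath of hair, was at 10.1 and 11.3 CPM uninduced and 127 and 101 CPM induced. EDAR, the ectodysplasin receptor needed for hair, teeth and sweat glands, was at 9.29 and 12.04 CPM uninduced and 91.4 and 96.9 CPM induced. CALML3, a calcium-binding relative of calmodulin found in stratified epithelium, was at 4.35 and 3.25 CPM uninduced and 54.3 and 55.03 CPM induced. The rule that chose these genes asked for groups without overlap, and their induced values lay several-fold above the uninduced ones. Their log2 fold changes were 3.40 ± 0.17 (adjusted p = 3.97e-15), 3.10 ± 0.17 (2.48e-14) and 3.90 ± 0.23 (9.27e-14). The zinc finger factors SP6, which acts in tooth and skin, and SP7, a factor of bone formation, rose together. SP6 was at 44.3 and 41.5 CPM uninduced and 393 and 357 CPM induced, with a log2 fold change of 3.14 ± 0.12 (adjusted p = 2.79e-18). SP7, which could be tested only through its induced libraries, was much weaker, at 1.19 and 2.58 CPM uninduced and 15.6 and 12.98 CPM induced (log2 2.79 ± 0.36, adjusted p = 2.01e-06). Their relative SP8, chosen after its values were seen, moved the other way, from 32.4 and 28.95 CPM to 19.5 and 20.2 CPM (log2 −0.63 ± 0.19, adjusted p = 0.0438), and was not called without uninduced replicate 1 (0.413), without uninduced replicate 2 (0.1896) or without induced replicate 1 (0.1504).

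DBH, the enzyme that turns dopamine into noradrenaline, had the steepest rise in this set, from 0.395 and 0.287 CPM to 12.04 and 15.7 CPM (log2 5.34 ± 0.50, adjusted p = 4.61e-09). With so few uninduced counts, DBH could be tested only through its induced libraries. Its antisense partner DBH-AS1, chosen after its values were seen, had 2 counts in the uninduced libraries together and 658 in the induced ones, a ratio of 382 with a 95% exact interval of 105 to 3159 that covers counting error only. The 2 genes overlap on opposite strands, and since no strand setting is known for the counting their reads cannot be told apart. CLCA2, a calcium-activated chloride channel regulator of stratified epithelium, had no count uninduced and 53 induced, at least 20.5-fold higher with the uninduced group set at 3 counts over the group. DKK4, a secreted Wnt inhibitor chosen after its values were seen, had 1 count against 62, a ratio of 71.9 (95% exact interval 12.4 to 2886).

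The remaining rises of this set were in cell surface, matrix and regulatory genes. STRIP2, a striatin-interacting protein, was at 12.9 and 11.8 CPM uninduced and 138 and 115 CPM induced, and its log2 fold change was 3.37 ± 0.16 (adjusted p = 1.82e-15). CDH11, a cadherin of mesenchymal and bone-forming cells, was at 9.09 and 10.7 CPM uninduced and 77.4 and 70.1 CPM induced (log2 2.87 ± 0.18, adjusted p = 3.70e-13). For both genes the gap between groups was much wider than the gap between replicates. EFEMP1, the matrix protein fibulin-3, moved from 1.38 and 0.764 CPM to 9.25 and 12.4 CPM (log2 3.42 ± 0.45, adjusted p = 3.02e-06). Like DBH, it could be tested only through its induced libraries. DKK3, a divergent member of the Dickkopf family, moved from 1.98 and 2.77 CPM to 25.9 and 19.6 CPM (log2 3.20 ± 0.30, adjusted p = 5.12e-09). HOXC13, a homeobox gene of hair and nail, is described with its cluster below. All 12 of these rises kept their calls with each of the 4 libraries left out in turn.

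Of 27 squamous and basal epithelial markers listed 11 could be tested, of which 5 rose and 1 fell, beside 3.63% and 2.80% of all tested genes. CLCA2, with no uninduced count, could be tested only through its induced libraries. Besides CALML3 and CLCA2 the rises were KRT6A, TRIM29 and GPC1. KRT6A, a keratin of wounded and hyperproliferative epithelium, was at 4.15 and 4.87 CPM uninduced and 23.6 and 25.8 CPM induced (log2 2.42 ± 0.26, adjusted p = 6.86e-08), with the reservation that reads may be divided with the near-identical KRT6B and KRT6C. TRIM29, a basal cell protein, was at 5.73 and 3.54 CPM uninduced and 21.3 and 22.5 CPM induced (log2 2.31 ± 0.28, adjusted p = 6.35e-07). Both stood clearly higher in both induced libraries. GPC1, a membrane proteoglycan chosen after its values were seen, rose by 1.18 ± 0.20 (adjusted p = 0.000125). The member that fell, PERP, a desmosomal protein shared by p53 and p63 programmes, went from 582 and 598 CPM to 486 and 432 CPM (log2 −0.36 ± 0.09, adjusted p = 0.01502), and its call was lost without uninduced replicate 1 (0.0763), without uninduced replicate 2 (0.168) or without induced replicate 2 (0.0576). Of 29 cornified envelope genes, which form the tough surface of the epidermis, 4 could be tested and none was called by edgeR or DESeq2, with 1 at an unadjusted edgeR p below 0.05. That gene, FLG, filaggrin, was at 0.791 and 0.955 CPM uninduced and 3.04 and 3.29 CPM induced (log2 1.80 ± 0.62, adjusted p = 0.0822).

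**Figure D2:**
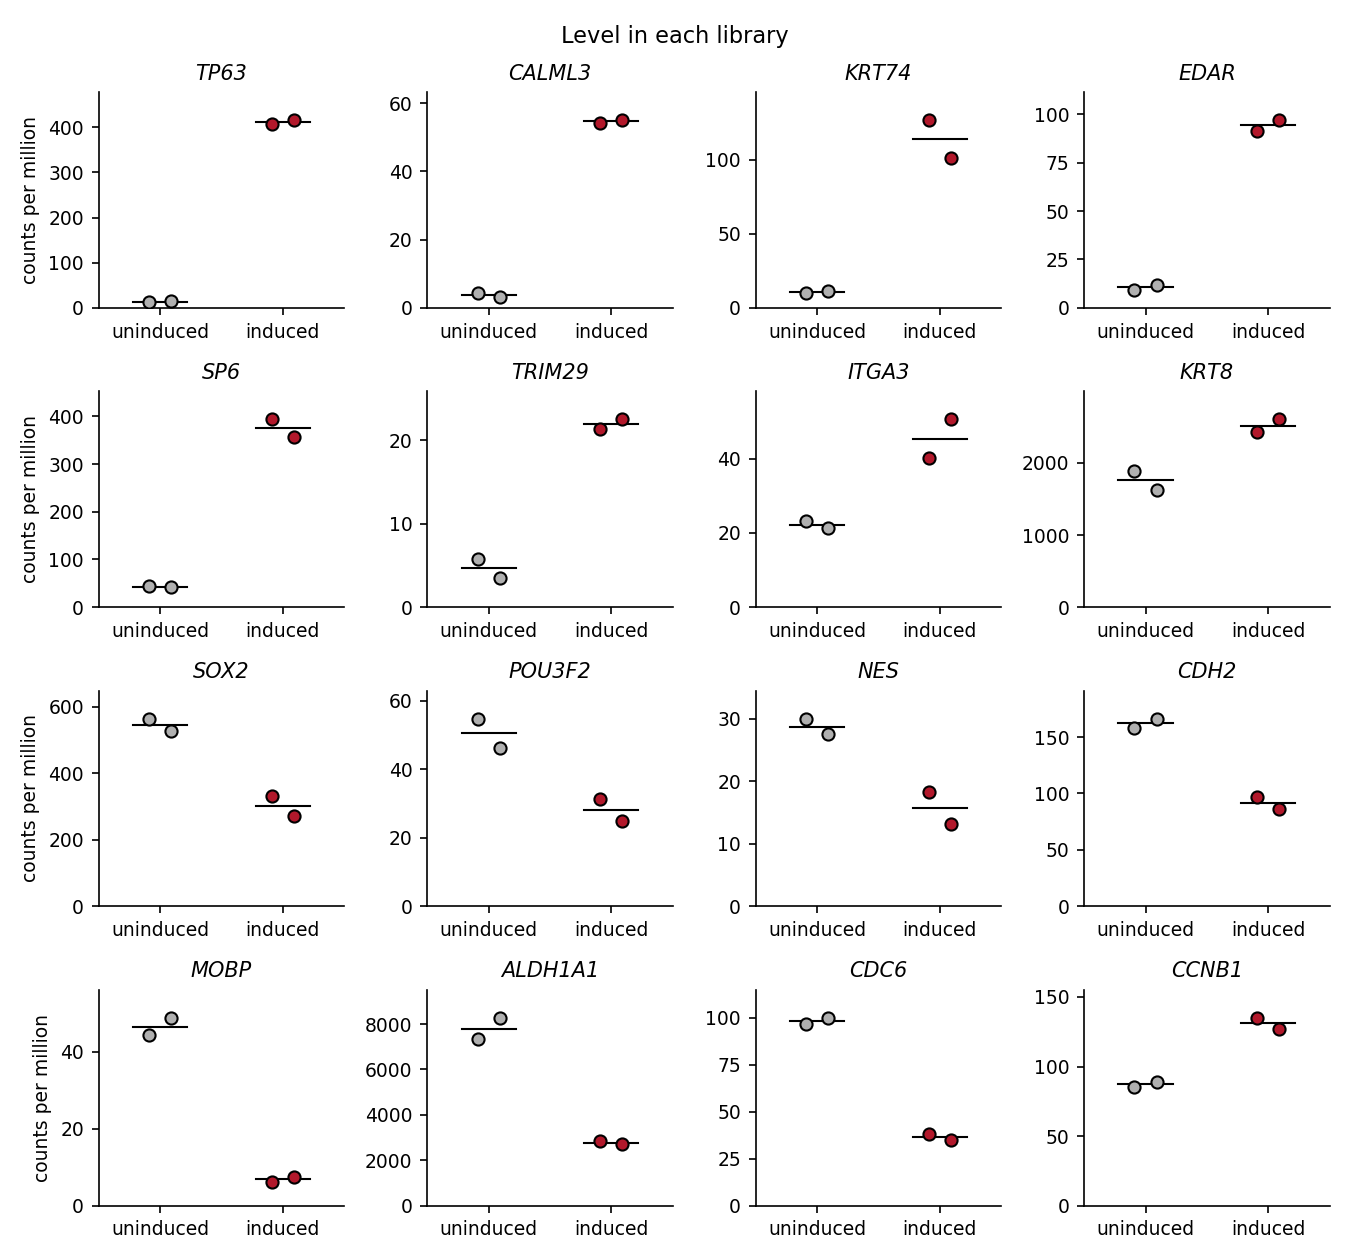
Level of 16 named genes in each library (CPM, linear axes from 0), with 2 uninduced libraries in grey, 2 induced libraries in red and a line at the mean of each group. In all 16 panels the groups do not overlap, as in 47.2% of all tested genes; TP63, CALML3, KRT74, EDAR, SP6, TRIM29, ITGA3, KRT8 and CCNB1 were higher induced and the other 7 genes lower.

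Of 26 hemidesmosome and basement membrane genes, which tie basal cells to their matrix, 4 rose and 1 fell (median 0.24). The shares over all tested genes were 3.63% and 2.80%. ITGA3, the alpha chain of a laminin-binding integrin, was at 23.1 and 21.3 CPM uninduced and 40.3 and 50.6 CPM induced (log2 1.03 ± 0.18, adjusted p = 0.0001605). ITGB4, the beta chain of the hemidesmosome integrin, was at 129.9 and 103 CPM uninduced and 205 and 234 CPM induced (log2 0.92 ± 0.12, adjusted p = 2.01e-06). ITGA3 about doubled in level and ITGB4 rose slightly less. The integrin chain ITGB5 rose by 0.71 ± 0.13 (adjusted p = 0.000267) and the laminin chain LAMB1 by 0.65 ± 0.10 (adjusted p = 4.31e-05). COL4A2, a type IV collagen chain chosen after its values were seen, fell by 0.39 (SE 0.10, adjusted p = 0.0159), a call lost without uninduced replicate 1 (0.3804) or without induced replicate 1 (0.103). Among 13 desmosome genes, which join cells to each other, 1 rose, the plakophilin PKP4 (0.59 ± 0.10, adjusted p = 0.0001998), and 1 fell, PERP (median −0.03).

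Of 30 simple epithelial genes 6 rose, 2 fell and 22 were not called (median 0.16). Among all tested genes 3.63% rose and 2.80% fell. KRT8, a keratin of simple epithelium and the most abundant gene of the list among those called, was at 1888 and 1626 CPM uninduced and 2432 and 2603 CPM induced (log2 0.52 ± 0.09, adjusted p = 0.000165). KRT23 was at 91.9 and 79.1 CPM uninduced and 195 and 178 CPM induced (log2 1.13 ± 0.12, adjusted p = 4.35e-08). CGN, the tight junction protein cingulin, was at 33.02 and 34.97 CPM uninduced and 82.97 and 93.6 CPM induced (log2 1.37 ± 0.14, adjusted p = 4.92e-08). All of them were higher in both induced libraries, KRT8 by the smallest factor. KLF4, a factor of terminal epithelial differentiation, went the other way, from 286 and 271 CPM to 169 and 174 CPM (log2 −0.70 ± 0.10, adjusted p = 1.58e-05). Further called members, chosen after their values were seen, were the transcription factors KLF5 (0.61 ± 0.11) and OVOL1 (1.98 ± 0.48), the protease ST14 (0.49 ± 0.09) and ELF3 (−1.12 ± 0.32), a factor of surface epithelium. The OVOL1 call was lost without uninduced replicate 1 (0.0533) or without uninduced replicate 2 (0.292) and the ELF3 call without uninduced replicate 1 (0.313), without uninduced replicate 2 (0.209) or without induced replicate 1 (0.201). Keratins matched by symbol, a family chosen after values were seen, had 4 of 9 tested members higher and none lower, KRT74, KRT6A, KRT23 and KRT8, while KRT18 (0.24 ± 0.09) and KRT19 (−0.09 ± 0.10) were not called.

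Of 49 genes reported elsewhere as direct p63 targets 16 rose and 4 fell (median 0.24), beside 3.63% and 2.80% of all tested genes. Of these rises, CLCA2 and ZNF750 could be tested only through their induced libraries. This list was compiled with earlier results of these data known and is no independent evidence of its direction. Apart from the genes above, the rises included CYP24A1, the enzyme that inactivates vitamin D, which went from 18.2 and 23.8 CPM to 86.3 and 77.9 CPM (log2 1.94 ± 0.16, adjusted p = 2.85e-10). The homeobox gene DLX3, a regulator of hair and epidermis chosen after its values were seen, went from 15.02 and 10.5 CPM to 53.05 and 36.8 CPM (log2 1.87 ± 0.21, adjusted p = 2.08e-07). HAS3, a hyaluronan synthase, was among the falls, at 266 and 287 CPM uninduced and 121 and 130.2 CPM induced (log2 −1.14 ± 0.11, adjusted p = 4.47e-09). ZNF750, an epidermal differentiation factor chosen after its values were seen, rose from 0.988 and 0.860 CPM to 2.92 and 6.98 CPM (log2 2.38 ± 0.60), but the call was lost without uninduced replicate 1 (0.133), without uninduced replicate 2 (0.284) or without induced replicate 2 (0.0738).

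SOX2, POU3F2 and NES, the transcription factors and filament gene of neural progenitors named by rule, all fell. SOX2 was at 565 and 528 CPM uninduced and 332 and 273 CPM induced (log2 −0.85 ± 0.10, adjusted p = 5.75e-07). POU3F2 was at 54.8 and 46.3 CPM uninduced and 31.3 and 24.8 CPM induced (log2 −0.83 ± 0.17, adjusted p = 0.00124). NES, nestin, was at 30.05 and 27.5 CPM uninduced and 18.2 and 13.2 CPM induced (log2 −0.85 ± 0.21, adjusted p = 0.00875). For each gene both induced libraries were below both uninduced ones, and induced replicate 2 was the lowest of the 4. Groups without overlap, in either direction, were found in 47.2% of all tested genes. The SOX2 and POU3F2 calls were kept with each library left out, POU3F2 narrowly with an adjusted p of up to 0.0492, and the NES call was lost without uninduced replicate 1 (0.118) or without uninduced replicate 2 (0.0513). Their list of neural transcription factors and progenitor genes had 4 of 21 members lower and 1 higher (median −0.34). This stands beside 2.80% lower and 3.63% higher over all tested genes. DESeq2 called 2 members lower and none higher. With the spread estimated over all 8 libraries no member was called, SOX2, POU3F2 and NES included. The member that rose, MYCN, could be tested only through its induced libraries, and LHX2, among those that fell, only through its uninduced ones. LHX2, a homeobox gene of forebrain and hair follicle chosen after its values were seen, fell from 8.70 and 8.41 CPM to 1.34 and 5.43 CPM (log2 −1.45 ± 0.44), a call lost without uninduced replicate 1 (0.185), without uninduced replicate 2 (0.2803) or without induced replicate 1 (0.427). MYCN rose from 1.19 and 0.955 CPM to 6.33 and 3.68 CPM (log2 2.27 ± 0.55, adjusted p = 0.00808), also lost without uninduced replicate 1 (0.0963), without uninduced replicate 2 (0.271) or without induced replicate 1 (0.151).

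Neuronal and neuroendocrine genes fell in 7 of 21 members and rose in none, with 18 of 21 negative and a median of −0.33. The share over all tested genes was 2.80% lower and 3.63% higher. DPYSL3, a cytoskeletal protein of growing axons and the most abundant of these, was at 2076 and 2153 CPM uninduced and 1346 and 1347 CPM induced (log2 −0.65 ± 0.09, adjusted p = 2.62e-06). NPTX1, a neuronal pentraxin, was at 32.03 and 22.9 CPM uninduced and 8.27 and 8.72 CPM induced (log2 −1.68 ± 0.24, adjusted p = 1.05e-05). The synaptic vesicle protein SYT1 was at 81.3 and 80.4 CPM uninduced and 45.02 and 46.1 CPM induced (log2 −0.83 ± 0.14, adjusted p = 0.000105). Replicates within a group were close for DPYSL3 and SYT1 and wider apart for uninduced NPTX1. The neurofilament NEFL fell by 0.75 (SE 0.13, adjusted p = 0.0001896). GRIK3, a kainate receptor subunit, fell by 1.22 (SE 0.22, adjusted p = 0.000235), DPYSL5 by 0.87 (SE 0.17) and the granin-like SCG3 by 1.16 (SE 0.30); these 3 were chosen after their values were seen, and the SCG3 call was lost without uninduced replicate 1 (0.1104), without uninduced replicate 2 (0.245) or without induced replicate 1 (0.106). The calcium channel gene CACNA1E, in no list and also chosen after its values were seen, fell from 189 and 182 CPM to 62.05 and 74.2 CPM (log2 −1.45 ± 0.12, adjusted p = 4.18e-10), and the neural adhesion gene NRCAM from 113 and 131 CPM to 55.8 and 53.3 CPM (log2 −1.16 ± 0.13, adjusted p = 1.56e-07). INSM1, a neuroendocrine factor that carried most of the summed level of its marker set, was not called. The summed neuroendocrine markers were at 24.9 and 26.2 CPM uninduced and 24.1 and 16.3 CPM induced.

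Of 39 axon guidance genes 4 rose and 2 fell (median 0.24), beside 3.63% and 2.80% of all tested genes. UNC5B, a netrin receptor, was at 16.2 and 17.3 CPM uninduced and 100.3 and 93.4 CPM induced (log2 2.52 ± 0.15, adjusted p = 3.50e-13). The receptor EPHA2, which is common in epithelium, rose from 37.2 and 32.7 CPM to 67.2 and 86.8 CPM (log2 1.14 ± 0.15, adjusted p = 4.57e-06), while EPHA4 fell from 92.9 and 100.2 CPM to 60.7 and 55.99 CPM (log2 −0.73 ± 0.13, adjusted p = 0.000304). The semaphorin SEMA3B rose by 1.15 ± 0.30 (adjusted p = 0.0162), but this call was lost without uninduced replicate 1 (0.133), without uninduced replicate 2 (0.209) or without induced replicate 1 (0.157).

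The largest falls by the same rule were mixed in function. MOBP, a myelin protein, was at 44.3 and 48.8 CPM uninduced and 6.08 and 7.56 CPM induced (log2 −2.80 ± 0.21, adjusted p = 5.58e-11). OTOP1, a proton channel, was at 65.2 and 59.7 CPM uninduced and 14.1 and 15.1 CPM induced (log2 −2.10 ± 0.17, adjusted p = 2.85e-10). THBS1, the matrix protein thrombospondin-1, was at 19.97 and 20.6 CPM uninduced and 3.04 and 1.16 CPM induced (log2 −3.16 ± 0.33, adjusted p = 4.35e-08). Uninduced libraries were several times higher for each of them, and the induced THBS1 values rested on few counts. THBS1 could be tested only through its uninduced libraries. GEMIN4, part of the complex that assembles spliceosomal particles, was at 49.8 and 47.4 CPM uninduced and 13.5 and 17.1 CPM induced (log2 −1.68 ± 0.18, adjusted p = 1.08e-07). SHISA2, an endoplasmic reticulum protein that holds back Wnt and FGF receptors, was at 52.98 and 62.7 CPM uninduced and 16.9 and 23.3 CPM induced (log2 −1.56 ± 0.18, adjusted p = 2.14e-07). The collagen COL8A1 fell by 1.74 (SE 0.29, adjusted p = 9.01e-05) and FAM57A by 2.48 (SE 0.44, adjusted p = 0.000217). THEMIS, a T cell signalling protein, fell by 1.77 (SE 0.39), HTATIP2 by 1.74 (SE 0.41) and KIAA1324 by 1.55 (SE 0.33). These last 3 calls were not stable: THEMIS was lost without uninduced replicate 1 (0.2098), HTATIP2 without uninduced replicate 2 (0.414) or without induced replicate 1 (0.0868) and KIAA1324 without uninduced replicate 2 (0.09695). The other 9 of the 12 falls kept their calls with each library left out.

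Mesenchymal genes split, with 6 of 16 higher and 3 lower (median 0.52), beside 3.63% and 2.80% of all tested genes. CDH2, neural cadherin, went from 158 and 166 CPM to 97.2 and 86.6 CPM (log2 −0.82 ± 0.12, adjusted p = 1.10e-05), while its relative CDH11 rose as given above and the epithelial cadherin CDH1 was not called (−0.24 ± 0.11, adjusted p = 0.242). THBS1 and COL8A1 were the other falls. The rises beyond CDH11, chosen after their values were seen, were fibronectin, FN1 (0.92 ± 0.19), the protease genes MMP2 (0.90 ± 0.18) and MMP14 (0.57 ± 0.15), and the transcription factors TWIST1 (0.78 ± 0.14) and SNAI2 (2.57 ± 0.55), the latter a known regulator of basal cells. SNAI2 was lost without uninduced replicate 2 (0.176) and MMP14 without uninduced replicate 2 (0.376) or without induced replicate 1 (0.134).

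Genes of DNA replication and S phase fell in 31 of 49 tested members and rose in none, beside 2.80% of all tested genes lower, with 46 of 49 negative and a median of −0.68. With each library left out in turn between 26 and 36 were lower and none higher. The falls included licensing factors that load the replicative helicase, subunits of the helicase itself, and some polymerase subunits and enzymes that make nucleotides. Others of these classes were not called, among them, chosen after their values were seen, the polymerase subunits POLA1 (−0.73 ± 0.23, adjusted p = 0.0592) and POLE2 (0.42 ± 0.63, 0.786) and thymidylate synthase, TYMS (−0.13 ± 0.12, 0.636). CDC6, a licensing factor, was at 96.9 and 100.04 CPM uninduced and 38.1 and 35.1 CPM induced (log2 −1.42 ± 0.14, adjusted p = 1.18e-08). MCM4, a helicase subunit, was at 707 and 716 CPM uninduced and 401 and 412 CPM induced (log2 −0.81 ± 0.09, adjusted p = 2.28e-07). FEN1, the nuclease that trims Okazaki fragments, was at 168 and 157 CPM uninduced and 73.5 and 75.95 CPM induced (log2 −1.12 ± 0.12, adjusted p = 5.14e-08). In each of these the replicates were nearly equal and the induced level was well below the uninduced one. TK1, thymidine kinase, was at 203 and 187 CPM uninduced and 84.7 and 100.4 CPM induced (log2 −1.08 ± 0.12, adjusted p = 9.76e-08). E2F2, a transcription factor that drives S phase genes, was at 62.9 and 52.6 CPM uninduced and 20.2 and 17.2 CPM induced and had the deepest fall of the list (log2 −1.60 ± 0.17, adjusted p = 7.62e-08). All 6 subunits of the MCM helicase fell, with MCM2 at −0.64 ± 0.09, MCM3 at −0.63 ± 0.09, MCM5 at −0.78 ± 0.10, MCM6 at −0.50 ± 0.11 and MCM7 at −0.47 ± 0.09; these 5 were chosen after their values were seen, and MCM6 lost its call without uninduced replicate 2 (0.0992). Other falls were those of E2F1 (−0.99 ± 0.15), MCM10 (−1.47 ± 0.18), CDC45 (−1.33 ± 0.16), POLA2 (−0.96 ± 0.15), RRM2 (−1.04 ± 0.12), PCNA (−0.84 ± 0.13) and UHRF1 (−1.13 ± 0.13), likewise chosen after their values were seen. Cyclins that act at S phase entry were not called: CCNE1 was at 0.06 ± 0.30 (adjusted p = 0.946), CCNE2 at −0.76 ± 0.37 (0.277) and CCND1 at −0.17 ± 0.10 (0.378). No member was called with the spread estimated over all 8 libraries.

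Many S phase genes carry an E2F binding site close to their start, and such sites are shown for 4 genes that fell. RefSeq promoter windows, from 250 bases before to 50 after a start, were at hand for 9139 of the 11991 tested genes (13486 windows, assembly GRCh38.p14). A site spelled TTTGGCGC or TTTCGCGC on either strand was in 10 of 35 windows of S phase genes that fell (28.6%) and in 4 of 22 windows of S phase genes that were not called (18.2%). It was in 4.52% of the windows of all genes that fell (19 of 420), 0.938% of those of genes that rose, 1.78% of those of all tested genes and 1.15% of all windows in the table. Of the 19 matching windows of genes that fell, 10 were the S phase windows just given. Genes can have several windows that overlap, and a match is a description of the sequence, not a bound site. For each gene shown, the window with the most matches was taken, so its start need not be the gene's main one. Each sequence below is the 160 bases before the start, 5′ to 3′ on the gene's strand, with matches on either strand in capitals; in MCM6 the 2 capital stretches each hold overlapping matches on both strands.
E2F1, chr20:33686386-33686545, - strand: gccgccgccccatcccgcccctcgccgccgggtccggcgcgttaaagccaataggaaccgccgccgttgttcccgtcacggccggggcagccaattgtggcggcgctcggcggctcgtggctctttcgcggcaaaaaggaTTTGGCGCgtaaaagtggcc
E2F2, chr1:23531234-23531393, - strand: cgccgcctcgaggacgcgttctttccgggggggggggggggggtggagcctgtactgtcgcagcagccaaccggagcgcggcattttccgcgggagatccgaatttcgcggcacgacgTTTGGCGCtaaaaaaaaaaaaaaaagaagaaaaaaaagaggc
MCM6, chr2:135876444-135876603, - strand: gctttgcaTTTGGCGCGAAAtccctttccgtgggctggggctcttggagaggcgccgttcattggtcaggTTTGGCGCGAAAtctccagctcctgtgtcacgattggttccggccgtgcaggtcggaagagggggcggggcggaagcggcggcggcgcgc
POLA2, chr11:65261802-65261961, + strand: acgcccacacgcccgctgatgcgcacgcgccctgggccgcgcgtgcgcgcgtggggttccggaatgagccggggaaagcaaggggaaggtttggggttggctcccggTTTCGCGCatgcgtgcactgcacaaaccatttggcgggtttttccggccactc
The matches began 20 bases before the start in E2F1, 42 in E2F2 and 53 in POLA2, and those of MCM6 lay between 152 and 86 bases before it.

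**Figure D3:**
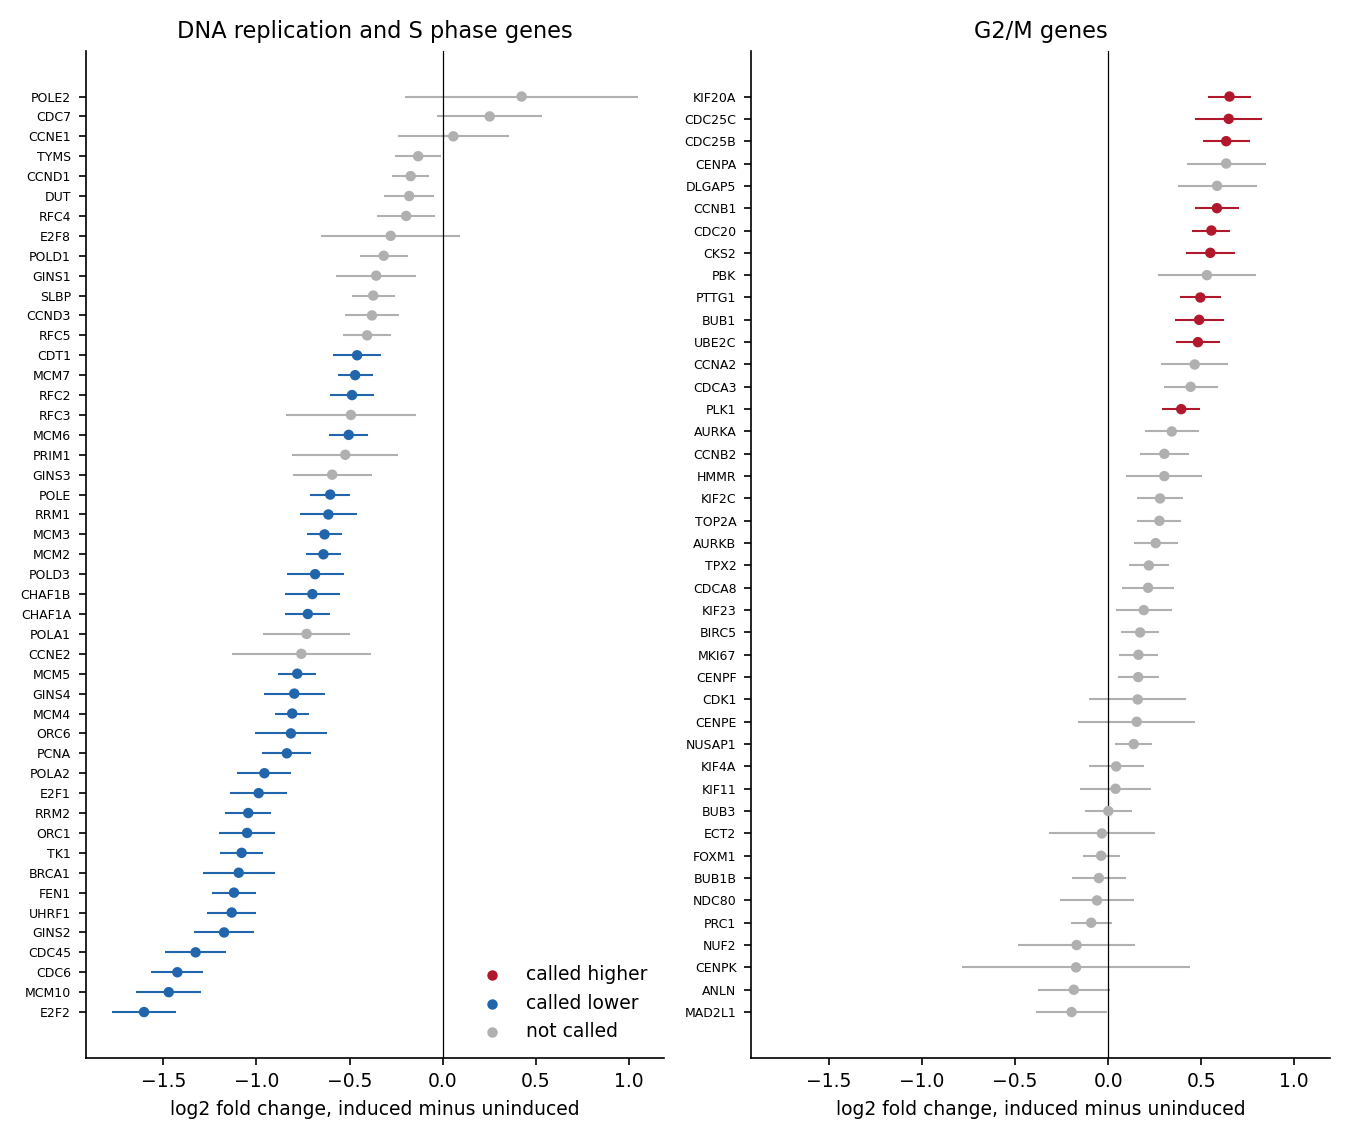
Log2 fold change, induced minus uninduced, of DNA replication and S phase genes (left, 47 of the 49 tested) and of each tested G2/M gene (right, 42 genes), with bars of 1 standard error and colours for calls. In the left panel 29 genes were called lower and none higher; in the right panel 10 were called higher and none lower.

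Of 42 genes of G2 and mitosis 10 rose, none fell and 32 were not called, and 9 of the 42 had negative values (median 0.24). Among all tested genes 3.63% rose and 2.80% fell. KIF20A, a mitotic kinesin, was at 102 and 118 CPM uninduced and 178 and 168 CPM induced (log2 0.65 ± 0.11, adjusted p = 0.000216). CDC20, the activator of the anaphase-promoting complex, was at 178 and 182 CPM uninduced and 269 and 259 CPM induced (log2 0.55 ± 0.10, adjusted p = 0.000353). CCNB1, cyclin B1, was at 85.6 and 88.95 CPM uninduced and 135 and 127 CPM induced (log2 0.58 ± 0.12, adjusted p = 0.00123). These were modest shifts, with every induced library above every uninduced one. Of all tested genes 47.2% had groups without overlap in either direction. The phosphatase CDC25B rose by 0.63 ± 0.13 (adjusted p = 0.00108). The number of G2/M genes higher was 4 to 12 with each library left out in turn. General proliferation markers were not called, with MKI67 at 0.16 ± 0.11 (adjusted p = 0.439) and TOP2A at 0.28 ± 0.12 (0.192). Among 6 tested CDK inhibitors, a family chosen after values were seen, CDKN1B (p27) rose by 0.64 ± 0.14 and CDKN1C (p57) by 0.68 ± 0.16. Both calls were lost without uninduced replicate 2 (adjusted p = 0.124 and 0.318) or induced replicate 1 (0.0617 and 0.119), and CDKN1A (p21) was not called (−0.03 ± 0.11, adjusted p = 0.916).

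Homologous recombination and Fanconi anaemia genes, which repair damaged replication forks, fell in 9 of 26 tested members and rose in none (median −0.36). This stands beside 2.80% lower and 3.63% higher over all tested genes, and this family was chosen after values were seen. BRCA1 was at 31.4 and 36.02 CPM uninduced and 15.7 and 16.1 CPM induced (log2 −1.10 ± 0.19, adjusted p = 0.000236). The exonuclease EXO1 was at 33.02 and 31.4 CPM uninduced and 8.52 and 14.3 CPM induced (log2 −1.53 ± 0.23, adjusted p = 1.94e-05). Both were lower in both induced libraries, while 47.2% of all tested genes had groups without overlap in either direction. With each library left out in turn 4 to 9 members of the family were lower.

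Of 35 p53 target genes 8 fell and 1 rose (median −0.09), beside 2.80% and 3.63% of all tested genes. GADD45A, a growth arrest gene, was at 125 and 111 CPM uninduced and 54.5 and 60.3 CPM induced (log2 −1.04 ± 0.13, adjusted p = 1.26e-06). The stress sensor SESN2 was at 48.8 and 48.5 CPM uninduced and 19.2 and 29.8 CPM induced (log2 −1.02 ± 0.18, adjusted p = 0.000289). AEN, a nuclease of apoptosis, fell by 0.90 (SE 0.13, adjusted p = 1.68e-05) and TP53I3, a quinone oxidoreductase, by 1.25 (SE 0.25, adjusted p = 0.00114). For all of them both induced libraries were below both uninduced ones, and induced replicate 1 was the lower of the pair. Groups without overlap, in either direction, were found in 47.2% of all tested genes. PHLDA3, an AKT inhibitor chosen after its values were seen, fell by 1.26 (SE 0.26). The main p53 targets of cycle arrest and feedback, CDKN1A and MDM2 (−0.08 ± 0.20, adjusted p = 0.874), were not called. The rise was in SFN, 14-3-3 sigma, an epithelial checkpoint protein that is also a reported p63 target, by 0.54 ± 0.13; it was chosen after its values were seen and lost its call without uninduced replicate 2 (0.338).

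In the Wnt list 10 of 39 genes rose, 1 fell and the others were not called (median 0.21). The shares over all tested genes were 3.63% and 2.80%. APCDD1, a membrane inhibitor of Wnt, was at 1438 and 1381 CPM uninduced and 4335 and 4475 CPM induced (log2 1.64 ± 0.08, adjusted p = 7.12e-15). FZD1, a Wnt receptor, was at 505 and 473 CPM uninduced and 194 and 182 CPM induced (log2 −1.38 ± 0.10, adjusted p = 1.72e-11). The ligand WNT5A was at 106 and 113 CPM uninduced and 251 and 199.95 CPM induced (log2 1.04 ± 0.12, adjusted p = 1.81e-07). So an inhibitor and a ligand rose while a receptor fell, each with groups well apart. NOTUM, an enzyme that inactivates Wnt ligands, rose from 3063 and 2618 CPM to 4061 and 3906 CPM (log2 0.49 ± 0.09, adjusted p = 0.000257). Feedback genes of the pathway, chosen after their values were seen, rose by smaller amounts, NKD2 by 0.71 ± 0.10, AXIN2 by 0.44 ± 0.10 and LEF1 by 0.40 ± 0.09, the AXIN2 call being lost without uninduced replicate 1 (0.05999) or without uninduced replicate 2 (0.0891) and the LEF1 call without uninduced replicate 1 (0.0747) or without uninduced replicate 2 (0.148). Of the Dickkopf inhibitors, DKK3 and DKK4 rose as given above, and DKK2, chosen after its values were seen, rose from 102 and 111 CPM to 170.3 and 190.5 CPM (log2 0.76 ± 0.11, adjusted p = 2.52e-05). DKK1, likewise chosen, was not called (−0.80 ± 0.30, adjusted p = 0.111).

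In the TGF-beta and BMP list 13 of 40 rose and 1 fell (median 0.28), and with each library left out in turn 6 to 16 rose. Among all tested genes 3.63% rose and 2.80% fell. The ligand TGFB2 was at 103 and 104 CPM uninduced and 224 and 196 CPM induced (log2 1.02 ± 0.11, adjusted p = 1.20e-07). ID2, a BMP response gene that blocks differentiation factors, was at 116 and 116 CPM uninduced and 226 and 218 CPM induced (log2 0.94 ± 0.11, adjusted p = 2.58e-07). The ligand BMP4 was at 130.1 and 116 CPM uninduced and 201 and 203 CPM induced (log2 0.72 ± 0.11, adjusted p = 3.13e-05). These genes shifted by less than the called rises of the squamous set. Replicates were close for ID2 and for induced BMP4 and wider apart for induced TGFB2. The pseudoreceptor BAMBI rose by 0.59 ± 0.09 (adjusted p = 4.58e-05). ID3, a relative of ID2 chosen after its values were seen, was the fall (−0.39 ± 0.10, adjusted p = 0.0121), lost without uninduced replicate 1 (0.287) or without induced replicate 1 (0.156).

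Notch pathway genes had 3 of 27 higher and none lower (median 0.00), beside 3.63% and 2.80% of all tested genes. JAG1, a Notch ligand, was at 49.6 and 51.8 CPM uninduced and 97.3 and 104 CPM induced (log2 0.98 ± 0.13, adjusted p = 4.17e-06). The target genes HEY1, at 10.7 and 12.1 CPM uninduced and 23.8 and 25.6 CPM induced (log2 1.10 ± 0.22, adjusted p = 0.00105), and HES1, at 3.95 and 3.25 CPM uninduced and 12.04 and 9.30 CPM induced (log2 1.60 ± 0.34, adjusted p = 0.00221), rose with it, the HES1 call being lost without uninduced replicate 2 (0.102). Of 37 genes of EGF receptor, FGF and IGF signalling 4 rose and none fell (median 0.29). TGFA, a ligand of the EGF receptor, was at 26.5 and 25.1 CPM uninduced and 77.3 and 60.5 CPM induced (log2 1.43 ± 0.16, adjusted p = 1.69e-07). The receptors IGF1R (0.53 ± 0.10) and ERBB2 (0.52 ± 0.16) and the binding protein IGFBP4 (1.73 ± 0.40) were called with all libraries. IGF1R was lost without uninduced replicate 2 (0.0607), ERBB2 without uninduced replicate 1 (0.125), without uninduced replicate 2 (0.569) or without induced replicate 1 (0.0896) and IGFBP4 without uninduced replicate 1 (0.0687), without uninduced replicate 2 (0.125) or without induced replicate 1 (0.108). Immediate early genes went both ways, 5 of 25 higher and 4 lower (median 0.14). FOSL2, an AP-1 subunit, was at 77.9 and 75.1 CPM uninduced and 167 and 148 CPM induced (log2 1.05 ± 0.12, adjusted p = 2.20e-07), and KLF4 fell as given above. EGR1 rose by 0.97 ± 0.21, lost without uninduced replicate 2 (0.294), and JUNB by 0.77 ± 0.18, lost without uninduced replicate 2 (0.128) or without induced replicate 1 (0.118).

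Among abundant genes the widest shift in CPM was the fall of ALDH1A1, a retinaldehyde dehydrogenase, at 7332 and 8269 CPM uninduced and 2851 and 2705 CPM induced (log2 −1.49 ± 0.08, adjusted p = 7.02e-14). Both induced libraries held far less than either uninduced one. Its list of alcohol, aldehyde and retinoid metabolism genes had 7 of 26 higher and 5 lower (median 0.18), so it did not move one way. The shares over all tested genes were 3.63% and 2.80%. CRABP2, which carries retinoic acid to its nuclear receptors, was at 55.2 and 56.8 CPM uninduced and 97.5 and 97.8 CPM induced (log2 0.80 ± 0.13, adjusted p = 7.53e-05). The retinaldehyde reductase DHRS3 rose by 0.67 ± 0.12 (adjusted p = 0.000311). ALDH3A1, the most abundant called gene of the list, was at 11581 and 9678 CPM uninduced and 7110.5 and 8402 CPM induced (log2 −0.45 ± 0.09, adjusted p = 0.000967). ALDH1A3, which makes retinoic acid as ALDH1A1 does, rose by 0.87 ± 0.20, and the retinoic acid receptor genes RARG and RARB by 0.83 ± 0.18 and 0.69 ± 0.18; these were chosen after their values were seen. ALDH1A3 was lost without uninduced replicate 1 (0.0754), RARG without induced replicate 1 (0.0576) and RARB without uninduced replicate 1 (0.301).

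Stress response genes moved singly rather than as lists, and their counts stand beside 3.63% higher and 2.80% lower over all tested genes. HSP90AA1, a cytosolic chaperone, was at 499 and 636 CPM uninduced and 1776 and 1451 CPM induced (log2 1.51 ± 0.11, adjusted p = 1.33e-11). It led 21 cytosolic heat shock genes, of which 3 rose and none fell (median −0.04), the others being HSPB1 (0.77 ± 0.14), lost without uninduced replicate 2 (0.107), and BAG3 (0.51 ± 0.13), lost without uninduced replicate 1 (0.232) or without induced replicate 2 (0.0754). NRF2 targets had 4 of 38 higher and 1 lower (median 0.05), among them the ferritin chain FTH1, at 3408 and 3464 CPM uninduced and 5381 and 4569.8 CPM induced (log2 0.53 ± 0.09, adjusted p = 7.13e-05), the export pump ABCC3 (1.87 ± 0.26, adjusted p = 8.69e-06) and EPHX1, an epoxide hydrolase (0.55 ± 0.09, adjusted p = 7.11e-05). In the ATF4 list 3 of 47 rose and 3 fell (median −0.05). The glutamine transporter SLC1A5 was at 1117 and 1016 CPM uninduced and 2171 and 2180.1 CPM induced (log2 1.03 ± 0.09, adjusted p = 6.08e-10). The tRNA synthetase WARS fell by 0.58 (SE 0.10, adjusted p = 0.000136), and the amino acid transporter SLC7A5 rose by 0.45 ± 0.09, lost without uninduced replicate 2 (0.0595). EIF4G1, the scaffold of the translation initiation complex and one of the abundant falls, fell by 0.37 (SE 0.09, adjusted p = 0.00559) and lost its call without uninduced replicate 1 (0.1200).

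Housekeeping and immune lists stayed near the background of 3.63% higher and 2.80% lower. Among 78 mitochondrial ribosomal, 74 nuclear respiratory chain and 28 mitochondrial stress response genes none was called in either direction by edgeR or by DESeq2, and 4, 9 and 1 had an unadjusted p below 0.05 in edgeR. Their medians were −0.03, −0.01 and −0.03, and the smallest p-values belonged to MRPL49 (adjusted p = 0.0871), UQCRQ (0.0784) and TSFM (0.116). Of 74 cytosolic ribosomal protein genes 2 rose and none fell (median 0.05), RPLP1 (0.34 ± 0.09), lost without uninduced replicate 2 (0.646) or without induced replicate 1 (0.0621), and RPL13 (0.27 ± 0.08), lost without uninduced replicate 1 (0.07196), without uninduced replicate 2 (0.4795) or without induced replicate 1 (0.0981). Hypoxia and glycolysis genes had 2 of 36 higher and none lower, PDK3 (0.63 ± 0.13), lost without uninduced replicate 1 (0.0664), and VEGFA (0.53 ± 0.12), lost without uninduced replicate 1 (0.1096) or without uninduced replicate 2 (0.0788). Cholesterol and fatty acid synthesis genes had 2 of 33 higher, MVD (0.61 ± 0.17), lost without uninduced replicate 2 (0.588) or without induced replicate 1 (0.117), and SCD (0.37 ± 0.10), lost without uninduced replicate 1 (0.339), without uninduced replicate 2 (0.0513) or without induced replicate 1 (0.274), and 1 lower, SREBF1 (−0.35 ± 0.11), lost without uninduced replicate 1 (0.623), without uninduced replicate 2 (0.0706) or without induced replicate 1 (0.1904). Chaperones of the endoplasmic reticulum had 1 of 29 higher, PDIA3 (0.44 ± 0.12), lost without uninduced replicate 1 (0.301) or without induced replicate 1 (0.407), and 1 lower, SEC61A1 (−0.32 ± 0.10), lost without uninduced replicate 1 (0.391), without uninduced replicate 2 (0.176) or without induced replicate 1 (0.259). Interferon and antigen presentation genes had 1 of 22 each way, OAS3 (−0.71 ± 0.18), lost without uninduced replicate 1 (0.159), without uninduced replicate 2 (0.0779) or without induced replicate 1 (0.1001), and TAPBP (0.71 ± 0.19), lost without uninduced replicate 2 (0.514) or without induced replicate 1 (0.0814). No inflammatory cytokine gene of 9 tested was called by edgeR or DESeq2 (3 at an unadjusted edgeR p below 0.05), the smallest p being that of NFKBIA (adjusted p = 0.0984). Among 8 markers of other lung epithelial cells 2 fell, the endoderm factor FOXA2, at 149 and 148 CPM uninduced and 91.1 and 90.5 CPM induced (log2 −0.71 ± 0.12, adjusted p = 7.92e-05), and the lipid transporter ABCA3 (−0.44 ± 0.13), lost without uninduced replicate 1 (0.4100), without uninduced replicate 2 (0.06696) or without induced replicate 1 (0.339). NKX2-1, the lineage factor of lung adenocarcinoma, was at 10.3 and 7.74 CPM uninduced and 8.88 and 9.11 CPM induced and was not called (adjusted p = 0.981).

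**Figure D4:**
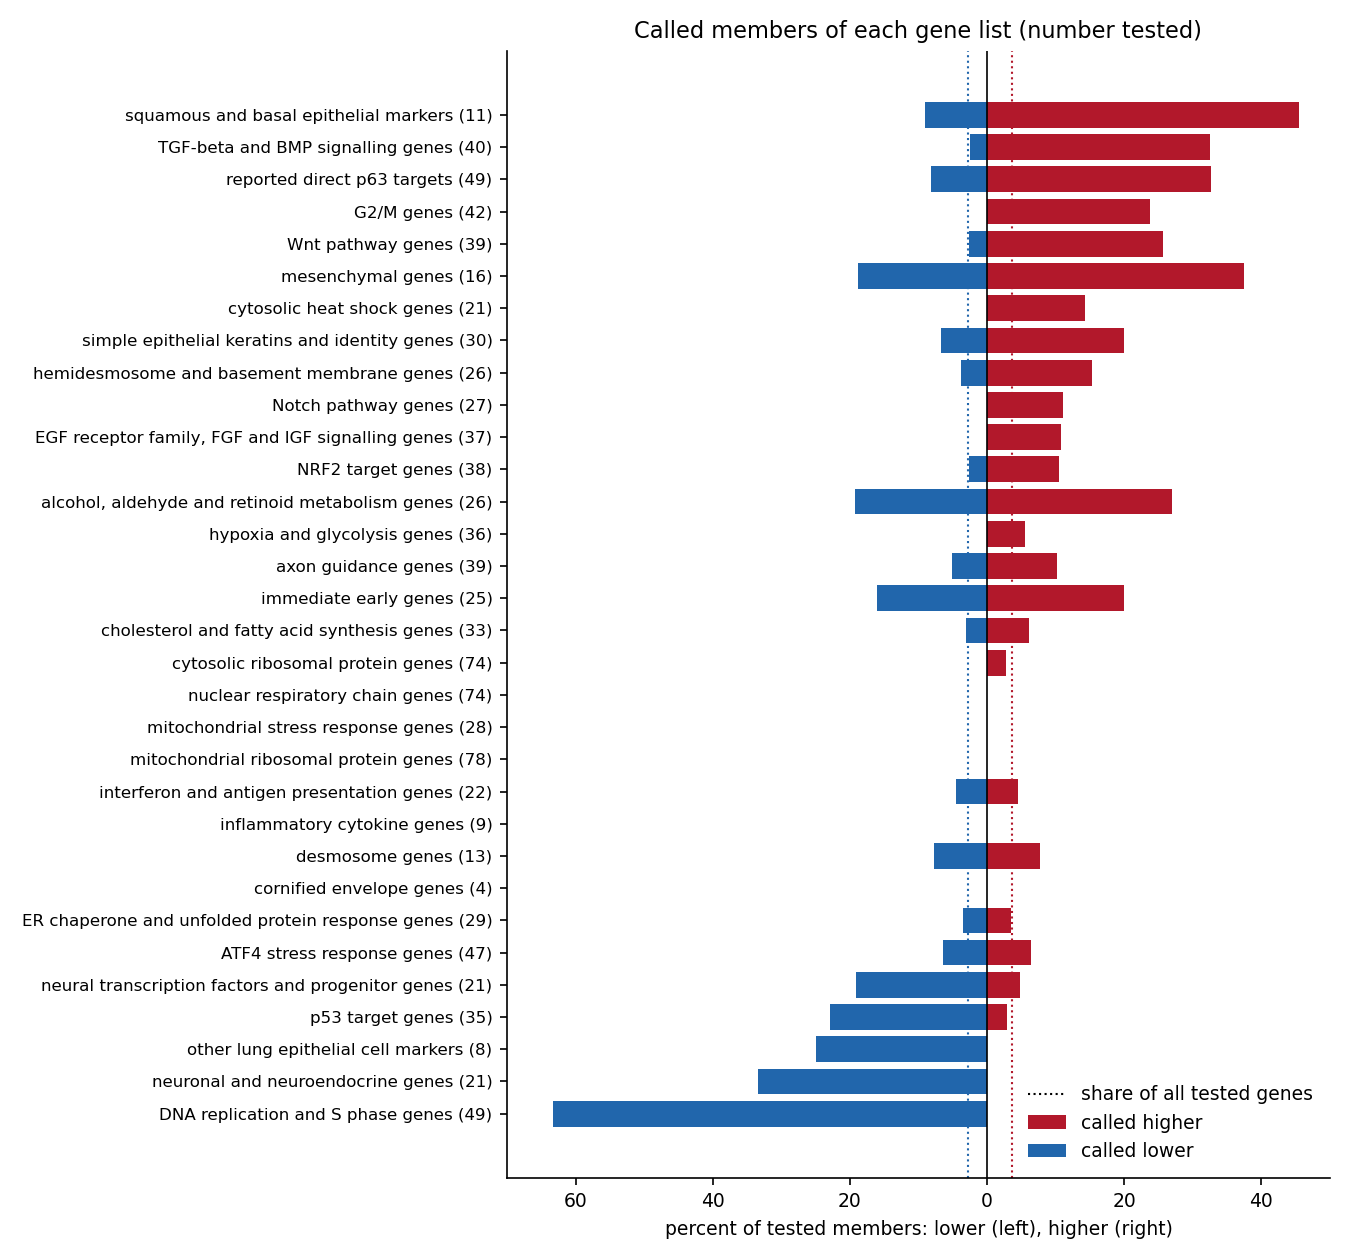
Share of tested members of each gene list called lower (left) or higher (right), in percent, with the number tested in parentheses and dotted lines at the shares over all tested genes (2.80% lower, 3.63% higher). DNA replication and S phase genes reached furthest to the left, with 31 of 49 lower, and squamous and basal epithelial markers furthest to the right, with 5 of 11 higher; lists with fewer than 4 tested members are left out.

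Gene families matched by symbol, all chosen after values were seen, showed some runs of calls. Among all tested genes 3.63% rose and 2.80% fell. HOXC genes rose in 5 of 8 tested members and fell in none (median 1.27), while 0 of 9 HOXA genes (median −0.06) and 0 of 7 HOXB genes (median 0.03) were called by edgeR or DESeq2 (1 and 0 at an unadjusted edgeR p below 0.05) and no HOXD gene could be tested. HOXC13 was at 3.76 and 2.29 CPM uninduced and 18.5 and 17.1 CPM induced (log2 2.64 ± 0.31, adjusted p = 5.23e-07). HOXC5 was at 36.8 and 32.6 CPM uninduced and 104 and 81.6 CPM induced (log2 1.44 ± 0.15, adjusted p = 4.35e-08). HOXC9 was at 10.9 and 12.04 CPM uninduced and 31.6 and 26.4 CPM induced (log2 1.33 ± 0.21, adjusted p = 6.18e-05). Those 3 genes kept their calls with each library left out. HOXC8 (1.40 ± 0.35) was lost without uninduced replicate 1 (0.0568) or without uninduced replicate 2 (0.244) and HOXC4 (1.21 ± 0.26) without induced replicate 1 (0.108). HOXC6 (0.56 ± 0.18, adjusted p = 0.0529), HOXC10 (0.02 ± 0.40) and HOXC11 (0.71 ± 0.55) were not called. The annotated spans of HOXC4, HOXC5, HOXC6, HOXC8 and HOXC9 overlap in part on one strand, and HOXC13 overlaps the antisense gene HOXC13-AS, so counts of these neighbours are not independent of each other.

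**Figure D5:**
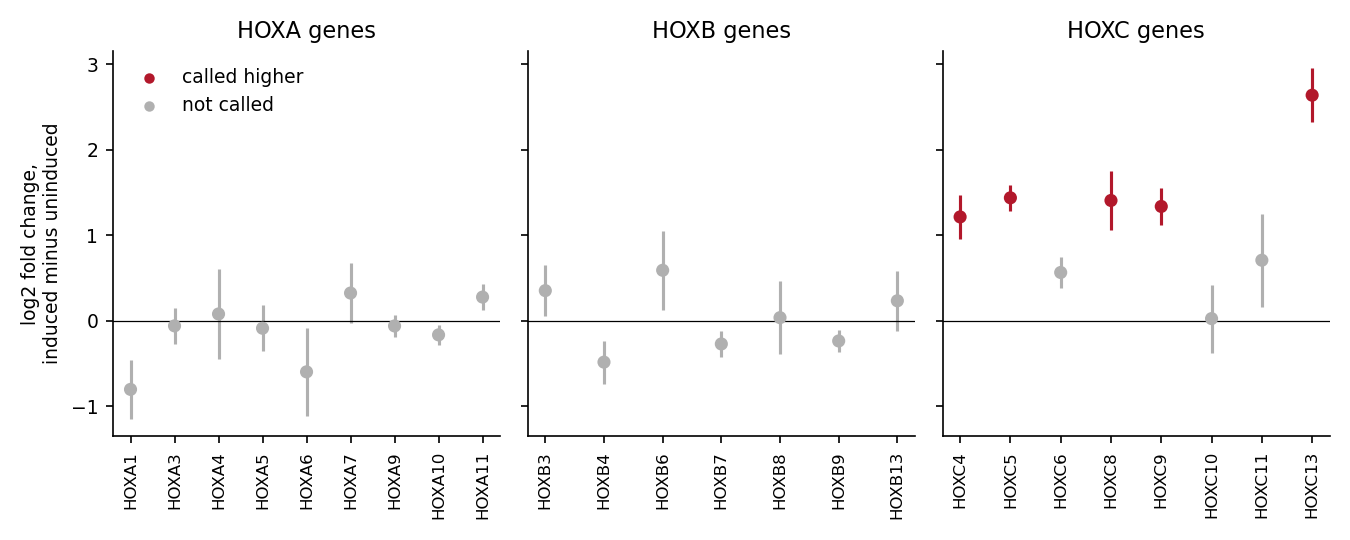
Log2 fold change, induced minus uninduced, of each tested HOXA (9 genes), HOXB (7) and HOXC (8) gene, with bars of 1 standard error. In HOXC 5 genes were called higher, from 1.21 for HOXC4 to 2.64 for HOXC13, and none was called in HOXA or HOXB.

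Metallothioneins, small proteins that bind zinc and copper, rose in 3 of 4 tested members, beside 3.63% of all tested genes (2.80% fell). MT2A was at 284 and 196 CPM uninduced and 1142 and 1115 CPM induced (log2 2.25 ± 0.12, adjusted p = 1.22e-14). MT1X was at 534 and 474 CPM uninduced and 1012 and 1223 CPM induced (log2 1.15 ± 0.10, adjusted p = 1.00e-09). MT3, a form first found in brain, was at 0.593 and 0.764 CPM uninduced and 5.35 and 6.20 CPM induced (log2 3.003 ± 0.57, adjusted p = 0.000528). It passed the filter on low counts only through its induced libraries, so its rise counts for less than those of MT2A and MT1X. The groups were far apart for all of them, and MT1F, the other tested member, was not called (−1.08 ± 0.59, adjusted p = 0.339). Of 11 cathepsins, the proteases of lysosomes, CTSB rose from 335 and 314 CPM to 704 and 807 CPM (log2 1.22 ± 0.10, adjusted p = 1.65e-10) and CTSZ from 196 and 189 CPM to 319.9 and 343 CPM (log2 0.78 ± 0.10, adjusted p = 1.86e-06). The call of CTSS (2.54 ± 0.67) was lost without uninduced replicate 1 (0.131), without uninduced replicate 2 (0.573) or without induced replicate 1 (0.233). In the SR splicing factor family 4 of 12 fell, SRSF1 by 0.49 (SE 0.10, adjusted p = 0.00232) and SRSF3, SRSF6 and SRSF7 by 0.35 to 0.39. The last 3 lost their calls with uninduced replicate 2 left out (adjusted p = 0.463 for SRSF3, 0.229 for SRSF6 and 0.572 for SRSF7) and with 1 or 2 other libraries left out.

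Whether the response was particular to the inducible system was tested as the difference between the log2 effect of induction and that of constitutive DNp63 over GFP, with 1 spread over all 8 libraries. The 2 effects share no library. CPM of the GFP and constitutive libraries were scaled over all 8 libraries, and those of the induced and uninduced libraries over these 4 alone. Of 12303 genes 67 differed (0.545%), 36 with a more positive and 31 with a more negative effect on induction. TP63 itself reached 1849 and 3808 CPM in the constitutive DNp63 libraries, above both induced ones, and its difference was −5.99 ± 0.57 (adjusted p = 0.00374). That difference also depends on the baselines, which were the uninduced level of TP63 (12.5 and 14.5 CPM) and its GFP level. It is therefore not the gap between induced and constitutive levels alone. CYP24A1 had effects of opposite sign. It was at 35.8 and 47.1 CPM with GFP and 4.28 and 7.55 CPM with constitutive DNp63, a log2 effect of −2.77, against the rise on induction given above, and the difference was 4.73 ± 0.41 (adjusted p = 0.00276). KIF20A and CDC20 also rose on induction and fell with constitutive DNp63 (log2 effects of −1.61 and −1.35), with differences of 2.27 ± 0.37 (adjusted p = 0.0306) and 1.90 ± 0.30 (0.03001).

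Of the 67 genes 44 had effects of the same sign, each time with the induced one smaller in size, and 23 had opposite signs. KRT6A rose to 557 and 394 CPM with constitutive DNp63 from 2.21 and 5.92 CPM with GFP, and its difference was −4.33 ± 0.48 (adjusted p = 0.00557). FOXQ1, a forkhead factor, went from 182 and 174 CPM to 97.9 and 89.9 CPM on induction and from 299.8 and 342 CPM to 28.8 and 30.2 CPM with constitutive DNp63 (difference 2.52 ± 0.25, adjusted p = 0.00418). KCNE3, a potassium channel subunit, went from 407 and 406 CPM to 188 and 182 CPM and from 639 and 669.98 CPM to 63.4 and 59.6 CPM (difference 2.27 ± 0.24, adjusted p = 0.00459). For both genes the uninduced level lay below the GFP level and the induced level well above the constitutive one. SOX2 (1.41 ± 0.40, adjusted p = 0.1799) and POU3F2 (2.49 ± 0.75, 0.206) were not called for a difference, nor were CDC6 (−0.74 ± 0.53, 0.634), MCM4 (−0.50 ± 0.27, 0.512), HOXC13 (0.02 ± 0.42, 0.996) or HOXC5 (1.97 ± 0.50, 0.143). These calls rest on every induced and uninduced library. Without induced replicate 1 or 2 none was called by edgeR (919 and 1303 genes at an unadjusted p below 0.05), without uninduced replicate 1 or 2 there were 3 and 2, and without GFP replicate 2 there were 31, while DESeq2 called 252 with all libraries.

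The 10-base p53 family element, the unit that p53 and p63 recognise, was also counted in the promoter windows. It was in 6.57% of the windows of genes that rose, 4.52% of those of genes that fell, 5.60% of those of all tested genes and 6.63% of all windows in the table, so it was about as frequent in the rises as elsewhere. Of the windows of reported p63 targets that rose none of 9 held it, and 2 such sites within 13 bases of each other were in 3 windows of tested genes, none of them called. No match says only that these letters are absent from this window. Examples are shown for KRT8 and HSP90AA1, which rose and hold a match, as the 160 bases before a start with that element in capitals. Again the window with the most matches was taken, so the start need not be the gene's main one.
KRT8, chr12:52926470-52926629, - strand: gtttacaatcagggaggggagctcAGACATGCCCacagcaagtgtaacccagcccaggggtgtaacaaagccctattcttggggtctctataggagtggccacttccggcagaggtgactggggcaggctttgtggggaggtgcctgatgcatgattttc
HSP90AA1, chr14:102139750-102139909, - strand: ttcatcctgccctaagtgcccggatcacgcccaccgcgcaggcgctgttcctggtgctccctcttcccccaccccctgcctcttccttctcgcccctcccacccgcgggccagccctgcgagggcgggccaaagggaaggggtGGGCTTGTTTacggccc
The match began 136 bases before the start of the window shown in KRT8 and 17 in HSP90AA1.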

How the data were processed

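RNA of 4 LK2 libraries, 2 uninduced and 2 induced, was compared, with the 4 GFP and constitutive DNp63 libraries added for the test between systems. Per the labels' protocols, polyA-selected, directional libraries were read from both ends for 38 bp. The authors deposited raw read counts by gene, made, per the submitters' processing notes, with TopHat2 2.1, HTSeq and SAMtools on hg19. Their annotation version and strand setting are not given in these sources.

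From these counts, genes were filtered with filterByExpr (minimum count 10), scaled with TMM, edgeR's trimmed mean scaling, and tested two-sided with edgeR 4.0.16 (quasi-likelihood, legacy estimates; R 4.3.3), with Benjamini-Hochberg adjustment and a threshold of 0.05. CPM use scaled library sizes, from the 4-library fit for induced and uninduced libraries and from the 8-library fit for the others. In the 4 libraries, 3 counts correspond to 0.287 to 0.593 CPM. Genes such as CLCA2, DBH, EFEMP1, MT3, MYCN, SP7, ZNF750 and FLG passed the filter only through their induced libraries. The filter therefore favoured rises among genes weak in the uninduced libraries. In the same way it favoured falls among genes weak in the induced ones. THBS1 and LHX2 passed only through their uninduced libraries. Ratios with few counts carry 95% exact intervals for counting error only. With a library left out, the lone library of its group was assumed to vary like the other group. DESeq2 1.42.0, other scalings and filters, a replicate block and a spread over all 8 libraries were alternatives, and the scripts were tested on simulated data.

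Named genes were TP63, TP73, SOX2, POU3F2 and NES; the 12 largest called rises and falls at a mean of at least 5 CPM without overlap between groups, leaving out antisense, host, small RNA and locus names; up to 4 called members of each of 34 lists; the 6 largest rises and falls in CPM; and the 5 smallest p-values of the difference between systems. The groups, lists, members and rule were chosen with earlier results of these data known. Mitochondrially encoded genes (0 of 15 in the table) and lists with under 4 tested members were not described. Same-numbered libraries did not deviate together (correlation −0.06), so the numbers were not used as pairs. Gene names come from the table. Promoter sequences and overlapping genes come from RefSeq (GRCh38.p14) and GENCODE annotation of another build, so no gene coordinates are given otherwise. Some genes that the rule or the lists hold are not reported here.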

Additional observations from a re-analysis of the deposited data

Results flagged for a closer look

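Genes named above for which the effect of induction differed from the effect of constitutive DNp63, by edgeR's test of the difference itself over 12303 genes, are given here as the induced minus the constitutive effect on the log2 scale. A positive value means a higher effect on induction. Of the 5 with the smallest p, CYP24A1 differed by 4.73 (adjusted p = 0.00276), TP63 by −5.99 (0.00374), FOXQ1 by 2.52 (0.00418), KCNE3 by 2.27 (0.00459) and KRT6A by −4.33 (0.00557).

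Genes that rose in both systems, and less on induction, were CALML3 (−3.45, adjusted p = 0.0300), the netrin receptor UNC5B (−3.08, 0.0376), KRT23 (−2.71, 0.0310), ITGA3 (−1.98, 0.0415) and the protease gene MMP14 (−1.74, 0.0271). Genes that fell in both, and less on induction, were the kainate receptor subunit GRIK3 (5.65, 0.0378), the alcohol dehydrogenase ADH1C (3.88, 0.0271), HAS3 (2.88, 0.00870), ALDH3A1 (2.63, 0.0271), FZD1 (2.38, 0.0205), FOXA2 (2.29, 0.0378) and ID3 (1.70, 0.0376). The mitotic genes KIF20A (2.27, 0.0306) and CDC20 (1.90, 0.0300) rose on induction and fell with constitutive DNp63, as 2 of the 23 differing genes with effects of opposite sign. All of these calls were lost when either induced library was left out, so they rest on both. Induced TP63 was at 406 and 416 CPM against 1849 and 3808 CPM with constitutive DNp63, and the part of this gap in the differences was not tested.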

How the results depend on the processing

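All genes called both with all 4 libraries and under an alternative kept their sign under every alternative run, and no named gene reversed. List results were graded only as kept or moved. The Notch list median, close to 0, changed sign between scalings (log2 −0.015 to 0.0074). Other scalings, filters and edgeR's newer estimates gave 755 to 896 calls for the 771. DESeq2 called 480 genes, 273 higher and 207 lower, of which 473 were shared. With the spread taken from all 8 libraries 35 were called, 29 higher and 6 lower. With each library left out in turn the calls ranged from 368 to 1903, the rises from 205 to 954 and the falls from 163 to 949. Of 119 named genes tested, 91 were no longer called with the 8-library spread, 12 with DESeq2 and 2 to 24 with a library left out. For the 67 genes that differed between systems, there were 558 without a filter on low counts, 252 with DESeq2 and 270 with the replicate block, and 0 to 446 with each of the 8 libraries left out. The replicate number as a block gave 696 calls for the main comparison, 677 of them shared with the unpaired fit, but the numbers did not pair the libraries. Low depth limits weak genes, since 3 counts correspond to up to 0.593 CPM, and 2 libraries per group leave the spread poorly known. The causes of these shifts were not tested.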
